A study of Mus musculus with 10 samples.

Results

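Desmin is the muscle-specific intermediate filament protein, and its gene Des lies on the forward strand of mouse chromosome 1 (GRCm38, 75360329 to 75368579). Here the genes around Des were followed along the chromosome in muscle of desmin knock-out mice. Members were all genes that start within 5 Mb of the start of Des on either side. Their mean expression value was at least log2(10) over all mice, and Des itself was left out. The start of a gene is here its lower coordinate, which for a gene on the reverse strand is its 3′ end. Of 190 rows of the expression table in this stretch, 61 reached this level and 129 did not, and 60 of the latter had the value 0 in all 10 mice. The 61 genes stand among 14289 genes of the genome that reached the same level. Of these 61, 41 lie before Des and 20 after it, and 56 are protein coding.

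RNA of gastrocnemius, a calf muscle that another passage of the study names together with plantaris, was sequenced from 5 homozygous desmin knock-out mice (Des -/-) and 5 wild-type mice (Des wt/wt), which the methods describe as littermates of one age. All 10 mice carry the strain name B6J.129Sv-Destm1Cba/Cscl, and their sex is not given in the labels. Transcripts of 4 Y-linked genes were expressed in each mouse (mean value 9.52 to 10.62), so all 10 carry a Y chromosome. The methods speak of RNA pooled per genotype, whereas the table has separate columns for the 10 mice, each taken here as 1 replicate. Values are regularized log (rlog) values, a log2-scale measure that the authors made with DESeq2, which is scaled for library size and draws each value towards the mean of its gene. A difference given below is the knock-out mean minus the wild-type mean on this scale. It tends to be smaller than a log2 fold change of counts, by an amount that is not known here without counts. The sequencing depth is unknown.

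By the rules of mouse nomenclature, such a strain name gives C57BL/6J as the background and 129Sv as the donor of the targeted allele. DNA of the donor strain that lies next to a targeted gene is inherited together with it. Whether donor DNA was present at the genes described here was not measured. An effect of the loss of desmin and an effect of linked donor DNA on these genes cannot be told apart in a comparison of these groups.

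The stretch holds genes of very different roles. Close to Des lie Speg, the striated muscle kinase of the junctions between T-tubules and sarcoplasmic reticulum, and Obsl1, a cytoskeletal adaptor related to the giant sarcomere protein obscurin. Further genes of muscle are Prkag3, the γ3 subunit of AMP-activated protein kinase found in fast fibers, Tuba4a, an α-tubulin, and Dnajb2, a co-chaperone. Others have general tasks in DNA repair, autophagy, membrane transport, lipid metabolism and the extracellular matrix.

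In desmin knock-out muscle, 9 of the 61 genes were higher and 10 were lower than in muscle of wild-type mice (limma, adjusted p under 0.05 over all 14289 tested genes). The changed genes were 31.1% of the members, whereas 13.7% of all tested genes passed the same threshold. By direction, 14.8% of the members were higher and 16.4% lower, compared with 7.7% and 5.99% of all tested genes. A difference of at least 1 on the log2 scale was found for 6 members (9.84%) and for 2.31% of all tested genes. These 6 were Slc4a3, Slc23a3 and Wdfy1, which were higher, and Plcd4, Gm15179 and 2310015K22Rik, which were lower. The values of both genotypes did not overlap in 17 members (27.9%) and in 14.4% of all tested genes. Of these, 6 were higher and 11 lower, against 7.45% and 6.97% of all tested genes without overlap in that direction. The median difference was -0.0996 over the members and -0.00293 over all tested genes, and the median size of a difference regardless of its sign was 0.232 and 0.173. No set test was made over the members, because they were chosen with results of these data known.

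**Figure D1:**
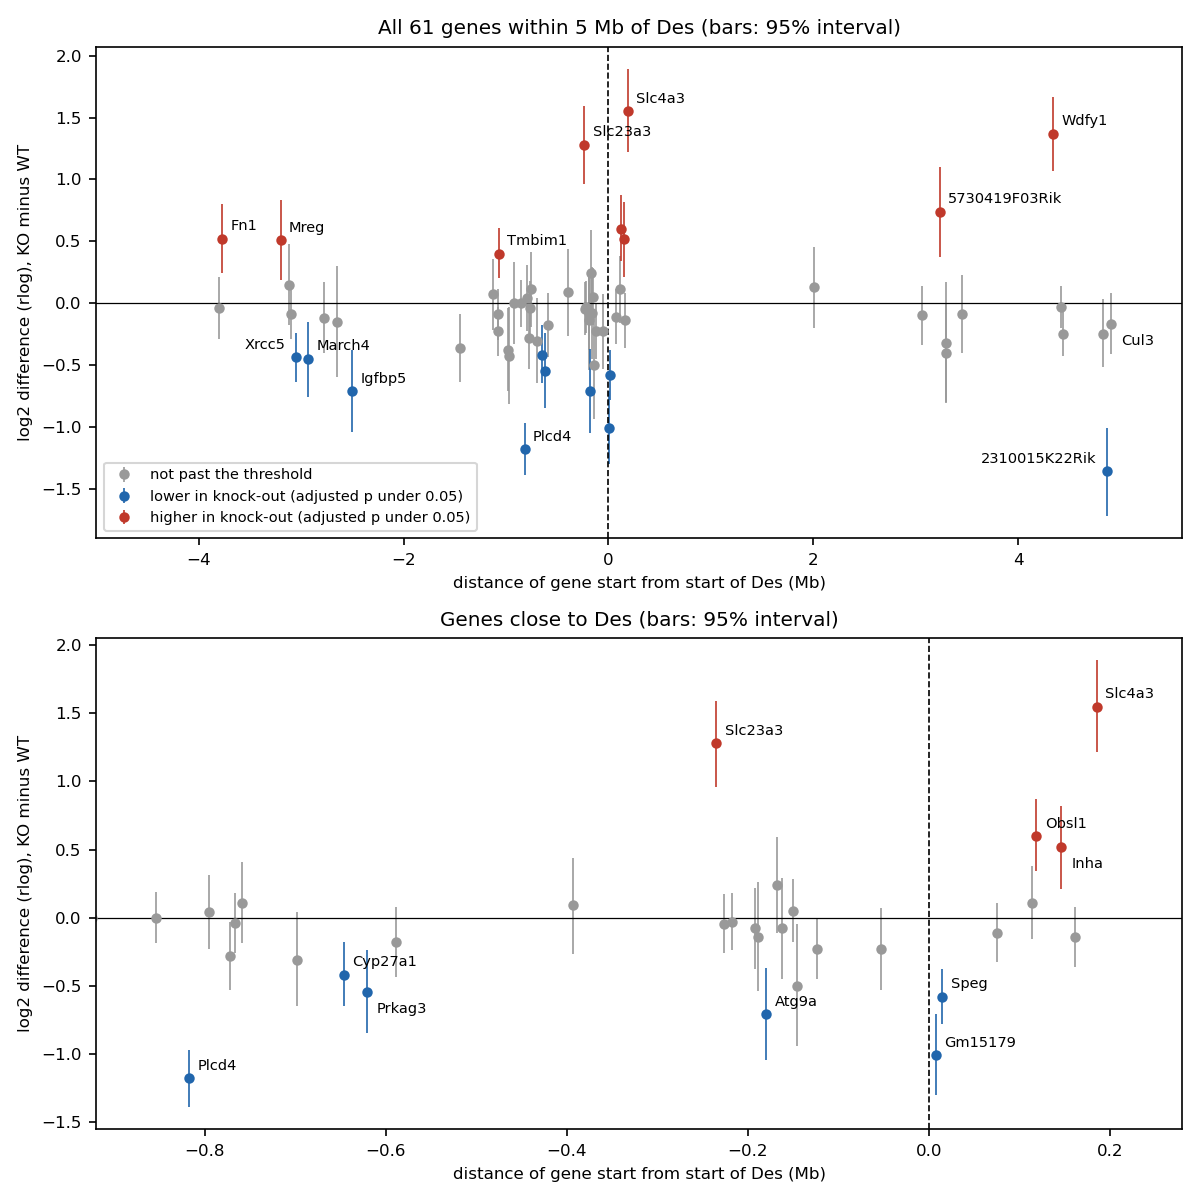
The log2 difference (rlog scale, knock-out minus wild-type) of each of the 61 genes is plotted against the distance of its start from the start of Des in Mb, over the whole stretch (top) and close to Des (bottom). Points are differences with 95% intervals, red for the 9 higher genes, blue for the 10 lower genes and grey for the 42 genes past no threshold, and changed genes of both directions lie next to grey ones on either side of the dashed line that marks Des.

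The targeted gene carried the level of its label in each mouse. Des lay between 16.10 and 17.74 in the 5 wild-type mice and between 11.76 and 11.89 in the 5 knock-out mice, a difference of -4.73 (standard error, SE, 0.25, limma adjusted p = 1.5e-07). Markers of skeletal muscle fibers (Acta1, Ckm, Mylpf, Tnnt3, Tnni2 and Actn3) were all expressed, with Actn3 lower in desmin knock-out muscle (difference -0.97). Their summed level, given relative to the median of all mice, ranged from 0.867 to 0.991 in knock-out mice and from 1.01 to 2.21 in wild-type mice. Among markers of other cells, 3 of 4 endothelial genes were lower (summed level 0.707 to 0.998 against 1 to 1.26 in wild-type mice). So were 2 of 3 erythroid genes (0.681 to 0.991 against 1.01 to 2.51). Of the 2 neutrophil genes tested, S100a8 showed a difference of 0.02 and S100a9 was lower (-1.18). The mean of S100a9 was 2.84 in knock-out mice, below the limit on expression, and 4.02 in wild-type mice. This gene thus reached the limit only through its wild-type values, and its call says little about neutrophils. The summed level of the neutrophil list of 3 was 0.714 to 1.03 against 0.859 to 1.47. Of the fibroblast genes, 2 of 4 were higher (0.808 to 1.17 against 0.523 to 1.24). None of the 4 Schwann cell, 4 macrophage, 4 adipocyte and 3 smooth muscle markers passed the threshold (limma), and no defining marker of any list was at 0 in all mice. In bulk muscle, fewer cells of a type and less RNA per cell cannot be told apart, and the part of these shifts in the results for single genes was not tested.

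Wild-type mouse 3 stood apart from the other mice. Its summed level over all genes was 1.48 times the median of the mice, it correlated with its group at a mean of 0.982 compared with 0.989 to 0.991 for the rest of the wild-type mice, and it had the highest wild-type value in 27 and the lowest in 13 of the 61 genes. Without it, 22 genes changed in place of 19, namely 9 higher and 13 lower, of 17.5% of all tested genes that then passed. Of the 19 genes, 18 passed again. March4 did not (adjusted p = 0.0545), whereas Ttll4 (difference -0.48), Acsl3 (-0.58), Utp14b (-0.55) and Serpine2 (-0.21) then passed (limma).

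The starts of 5 of these genes are shown in sequence, from 250 bases before to 50 bases after the transcription start in RefSeq (GRCm38.p6, chromosome 1), because they belong to changed genes described in detail below. They were chosen after the values were seen, and where RefSeq lists several starts the first is used. A promoter sequence was at hand for 56 of the 61 members. Capitals mark E-boxes, the hexamer CANNTG bound by myogenic and other helix-loop-helix factors, and 1 match to the MEF2 consensus, in Speg. Plcd4 is read from chr1:74542639-74542938 (forward strand), Slc23a3 from chr1:75133841-75134140 (reverse strand), Slc4a3 from chr1:75546212-75546511 (forward strand), Speg from chr1:75375047-75375346 (forward strand) and Atg9a from chr1:75191961-75192260 (reverse strand).
Plcd4: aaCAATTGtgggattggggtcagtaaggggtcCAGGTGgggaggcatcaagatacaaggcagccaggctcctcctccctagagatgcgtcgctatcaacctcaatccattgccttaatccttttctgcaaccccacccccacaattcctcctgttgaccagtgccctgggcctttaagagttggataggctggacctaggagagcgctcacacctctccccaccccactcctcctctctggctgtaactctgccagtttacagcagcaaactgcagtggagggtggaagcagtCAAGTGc
Slc23a3: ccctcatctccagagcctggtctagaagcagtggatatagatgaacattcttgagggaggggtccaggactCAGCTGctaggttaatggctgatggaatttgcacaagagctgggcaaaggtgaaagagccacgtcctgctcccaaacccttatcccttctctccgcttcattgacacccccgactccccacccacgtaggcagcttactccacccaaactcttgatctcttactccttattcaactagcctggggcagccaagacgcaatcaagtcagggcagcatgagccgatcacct
Slc4a3: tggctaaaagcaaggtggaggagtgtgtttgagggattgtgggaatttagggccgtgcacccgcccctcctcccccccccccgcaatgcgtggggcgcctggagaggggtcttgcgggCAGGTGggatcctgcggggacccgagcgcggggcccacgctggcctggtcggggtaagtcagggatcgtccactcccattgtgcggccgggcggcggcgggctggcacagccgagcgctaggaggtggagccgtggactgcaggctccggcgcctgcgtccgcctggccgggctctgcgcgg
Speg: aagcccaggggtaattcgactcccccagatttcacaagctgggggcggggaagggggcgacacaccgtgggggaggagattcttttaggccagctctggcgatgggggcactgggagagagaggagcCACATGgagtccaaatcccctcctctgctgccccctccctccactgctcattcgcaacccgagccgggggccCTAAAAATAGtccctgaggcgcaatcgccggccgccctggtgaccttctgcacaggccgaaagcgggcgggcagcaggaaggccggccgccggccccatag
Atg9a: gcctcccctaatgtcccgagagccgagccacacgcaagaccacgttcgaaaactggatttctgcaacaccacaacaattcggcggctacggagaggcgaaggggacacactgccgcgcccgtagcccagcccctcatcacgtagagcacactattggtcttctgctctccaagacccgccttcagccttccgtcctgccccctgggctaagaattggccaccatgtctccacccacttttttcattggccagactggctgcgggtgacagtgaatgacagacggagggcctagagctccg

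The Plcd4 window held 3 E-boxes, those of Slc23a3, Slc4a3 and Speg 1 each, and that of Atg9a none. E-boxes are common, since 72.1% of 27025 RefSeq promoters of this length hold at least 1 on either strand, as do 42 of the 56 member promoters. The MEF2 consensus and the CArG box consensus bound by SRF were added to the search only after the Speg sequence had been read and its MEF2 match noticed. On both strands, the MEF2 consensus was found in 3.26% of all promoters and in 3 of the 56, and the CArG box in 1.57% and in 2 of the 56. The GC box GGGCGG occurred 3 times in Speg, 2 times in Slc4a3 and in none of the other windows shown, and at least once in 35.9% of all promoters and in 34 of the 56. CCAAT was found in 37.9% of all promoters and 21 of the 56, and TATAAA in 14.2% and 2 of the 56, all on both strands and with overlaps between different motifs allowed. The Slc4a3 window held 28 CpG dinucleotides and those of Plcd4 and Slc23a3 3 and 6, with a median of 7 over all promoters. The 27025 promoters were not limited to genes expressed in this muscle, whereas the 56 belong to expressed genes, and the shares were not tested. These matches describe letters and not binding.

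Slc4a3 (ENSMUSG00000006576, chromosome 1, 75546266 to 75562172, forward strand) starts 185.9 kb after Des and encodes an anion exchanger that trades chloride for bicarbonate in excitable tissue. Its rlog values were 10.31, 10.06, 10.12, 9.63 and 9.67 in desmin knock-out mice 1 to 5 and 8.13, 8.36, 8.41, 8.84 and 8.29 in wild-type mice 1 to 5. Every knock-out mouse lay above every wild-type mouse. The difference of 1.55 (SE 0.16, limma adjusted p = 2e-05) was the largest rise among the members, rank 91 by size and rank 110 by p among all tested genes. By an exact two-sided permutation test p was 0.00794, the lowest value that is possible with 5 mice in each genotype. This unadjusted value follows from the lack of overlap alone and adds no further support. Any gene without overlap has it, which holds for 14.4% of all tested genes. The same applies to Slc23a3, Wdfy1 and Plcd4 below.

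Slc23a3 (ENSMUSG00000026205, 75125541 to 75133890, reverse strand) starts 234.8 kb before Des and belongs to the family of sodium-dependent vitamin C transporters. It had 5.85, 5.66, 5.94, 5.82 and 5.70 in knock-out mice 1 to 5 and 4.42, 4.17, 4.87, 4.81 and 4.33 in wild-type mice 1 to 5. The groups did not overlap, and the difference was 1.28 (SE 0.14, limma adjusted p = 5.7e-05, exact permutation p = 0.00794). The next gene on the same strand, Cnppd1, showed -0.05 (95% interval -0.26 to 0.17), and Nhej1, a factor of DNA end joining on its other side, showed 0.09 (95% interval -0.27 to 0.44).

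Wdfy1 (ENSMUSG00000073643, 79702262 to 79776143, reverse strand) lies far from Des, at 4.34 Mb after it, and encodes a WD-repeat protein with a FYVE domain that binds to endosomes. Knock-out mice 1 to 5 had 9.47, 9.41, 9.28, 9.40 and 9.40, and wild-type mice 1 to 5 had 8.28, 8.17, 7.49, 7.93 and 8.23. The knock-out values were closely grouped and all lay above the wild-type values, with a difference of 1.37 (SE 0.14, limma adjusted p = 2e-05, exact permutation p = 0.00794). Wild-type mouse 3 was the lowest of all, and without it the difference was 1.24.

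Plcd4 (ENSMUSG00000026173, 74542888 to 74567794, forward strand), which encodes the phospholipase C isoform δ4 that cleaves a phosphoinositide of membranes, starts 817.4 kb before Des. Its values were 11.52, 11.35, 11.46, 11.18 and 11.24 in knock-out mice 1 to 5 compared with 12.42, 12.47, 12.59, 12.72 and 12.45 in wild-type mice 1 to 5. The genotypes were fully apart, with the knock-out mice below. With a difference of -1.18 (SE 0.10, limma adjusted p = 3.7e-06, exact permutation p = 0.00794), Plcd4 had rank 48 by p among all tested genes, the first among the members. Both of its ends overlap genes of the opposite strand, Usp37 by 1397 bases and Zfp142 by 2668 bases. Neither of these passed the threshold (limma, adjusted p = 0.993 for Usp37 and 0.856 for Zfp142). Leaving out single mice, the difference of Plcd4 stayed between -1.22 and -1.13.

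2310015K22Rik (80225044 to 80228792, forward strand), a long intergenic non-coding RNA of unknown function at 4.86 Mb after Des, had the largest fall among the members. Its values were 6.49, 5.92, 5.96, 6.06 and 6.10 in knock-out mice 1 to 5 and 7.76, 7.11, 7.58, 7.12 and 7.79 in wild-type mice 1 to 5. The groups did not overlap, with a difference of -1.36 (SE 0.16, limma adjusted p = 9.5e-05). Its next neighbour along the chromosome is Cul3, the scaffold of a family of ubiquitin ligases, which had a difference of -0.17 (95% interval -0.41 to 0.08).

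**Figure D2:**
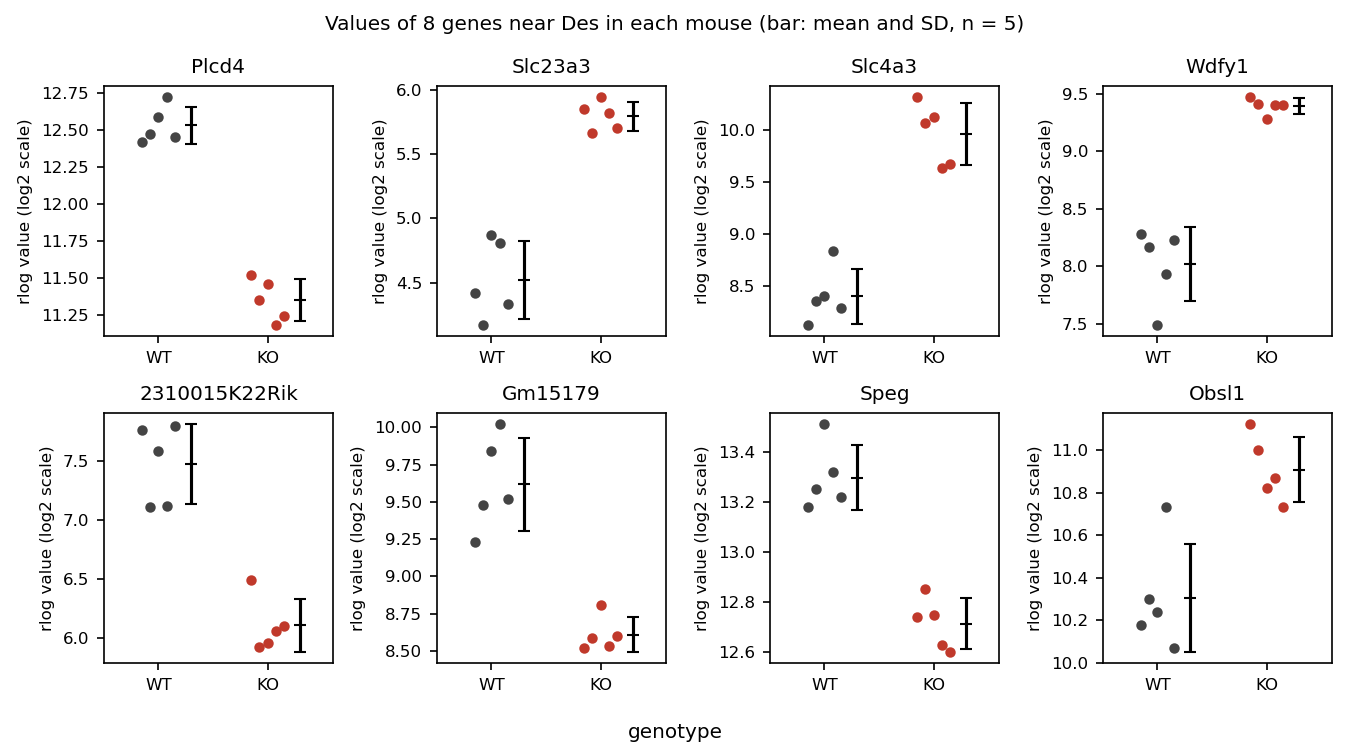
The rlog value (log2 scale) of each mouse is plotted for 8 genes near Des, with wild-type mice (WT) in grey, desmin knock-out mice (KO) in red, and the mean with SD (n = 5) beside each group. In 7 of the panels no knock-out value lies within the wild-type range, and in Obsl1 the lowest knock-out and the highest wild-type mouse meet at 10.73.

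Of the 8 members from Des to Slc4a3, the first 2, Gm15179 and Speg, were lower, 3 were higher (Obsl1, Inha and Slc4a3) and 3 did not pass (Gmppa, Chpf and Stk11ip). Gm15179 (75368212 to 75375012), an antisense gene on the reverse strand, overlaps the end of Des by 368 bases. It had 8.52, 8.59, 8.81, 8.53 and 8.60 in knock-out mice 1 to 5 and 9.23, 9.48, 9.84, 10.02 and 9.52 in wild-type mice 1 to 5, without overlap (difference -1.01, SE 0.14, limma adjusted p = 2.4e-04). The library kit was a stranded one, but the strand setting of the counting is not given in the sources used here, so reads of the overlap may belong to either gene. Speg (ENSMUSG00000026207, 75375297 to 75432320) follows on the forward strand and does not overlap Des. Its knock-out values were 12.74, 12.85, 12.75, 12.63 and 12.60 and its wild-type values 13.18, 13.25, 13.51, 13.32 and 13.22. All knock-out mice lay below all wild-type mice (difference -0.58, SE 0.09, limma adjusted p = 8.6e-04).

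Further on, Gmppa (difference -0.11), a regulator of GDP-mannose synthesis, and Chpf (0.11), a chondroitin polymerizing factor, did not pass. Obsl1 (75479310 to 75506452, reverse strand) ranged from 10.73 to 11.12 in knock-out mice and from 10.07 to 10.73 in wild-type mice. Only wild-type mouse 4 reached the knock-out range (difference 0.60, SE 0.12, limma adjusted p = 0.00548). Inha, which encodes the α subunit of the hormone inhibin, followed with 6.64 to 7.0 against 6.0 to 6.72. Here again wild-type mouse 4 overlapped with the knock-out mice (difference 0.52, SE 0.14, limma adjusted p = 0.0257), and the call was lost in 6 of 18 alternatives, 4 of which left out 1 mouse. Stk11ip, a partner of the kinase LKB1, showed -0.14 and did not pass, and after Slc4a3 the next member, the receptor tyrosine kinase gene Epha4, lies 2.01 Mb from Des (difference 0.13, 95% interval -0.20 to 0.45).

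On the other side, the 5 members nearest to Des, in order of distance Dnpep, Dnajb2, Tuba4a, Stk16 and Glb1l, did not pass. Dnpep, an aspartyl aminopeptidase, had a difference of -0.23, of which -0.08 remained without wild-type mouse 3. Tuba4a ranged from 14.37 to 14.75 in knock-out mice and from 14.70 to 15.99 in the others, the highest being that of wild-type mouse 3 (difference -0.50, SE 0.21, limma adjusted p = 0.135). Without this mouse the difference of Tuba4a was -0.27. For Dnajb2 the difference was -0.23 (95% interval -0.45 to -0.01, limma adjusted p = 0.162), for the kinase gene Stk16 0.05 (-0.18 to 0.28) and for Glb1l, which is related to β-galactosidase, -0.08 (-0.45 to 0.29).

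Atg9a (75180860 to 75192196, reverse strand), which encodes the membrane protein that supplies lipids to growing autophagosomes, was lower in all 5 knock-out mice. It had 10.54, 10.42, 10.35, 10.53 and 10.29 in knock-out mice 1 to 5 and 11.02, 11.18, 11.79, 10.79 and 10.90 in wild-type mice 1 to 5. The difference was -0.71 (SE 0.16, limma adjusted p = 0.00869) and -0.55 without wild-type mouse 3, which had the highest value. Around it, Zfand2b (-0.08), Abcb6 (-0.14) and Ankzf1 (0.24) did not pass.

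Between 0.5 and 1 Mb before Des, 3 of 13 genes were changed, all lower. Besides Plcd4 these were Cyp27a1, the mitochondrial sterol 27-hydroxylase, and its neighbour Prkag3. Cyp27a1 ranged from 11.61 to 11.92 in knock-out and from 11.98 to 12.40 in wild-type mice, without overlap (difference -0.42, SE 0.11, limma adjusted p = 0.0201). Prkag3 had 12.41, 12.40, 12.70, 12.40 and 12.12 in knock-out mice 1 to 5 and 12.70, 12.59, 13.14, 13.22 and 13.11 in wild-type mice 1 to 5. Knock-out mouse 3 reached the lower wild-type values (difference -0.55, SE 0.14, limma adjusted p = 0.0208). Ctdsp1, a phosphatase of RNA polymerase II, had no overlap between the genotypes but did not pass (difference -0.43, adjusted p = 0.15), with wild-type mouse 3 at 12.66 far above the others at 11.50 to 11.67. Without this mouse its difference was -0.21.

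Farther before Des, Tmbim1, a membrane protein with a BAX inhibitor motif, was higher (11.59 to 11.75 in knock-out against 11.12 to 11.57 in wild-type mice, difference 0.40, limma adjusted p = 0.0132). It lies inside Pnkd, a gene of the opposite strand with 17376 shared bases, which showed a difference of -0.23 and no overlap between the genotypes but did not pass (adjusted p = 0.116). Tns1, which encodes the focal adhesion protein tensin 1, had a difference of -0.36 (limma adjusted p = 0.0791).

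At 2.5 to 3.8 Mb before Des, 3 genes were lower and 2 higher. Igfbp5, a secreted binding protein of insulin-like growth factors, had 13.40, 13.25, 13.25, 13.15 and 13.11 in knock-out mice 1 to 5 and 14.03, 13.78, 13.78, 13.59 and 14.53 in wild-type mice 1 to 5. No knock-out mouse reached the wild-type range (difference -0.71, SE 0.15, limma adjusted p = 0.00703). Xrcc5, which encodes the Ku80 protein of DNA double-strand break repair, ranged from 10.53 to 10.67 in knock-out and from 10.91 to 11.31 in wild-type mice (difference -0.44, limma adjusted p = 0.00662). March4, a membrane-bound ubiquitin ligase, passed narrowly (difference -0.45, limma adjusted p = 0.048) and lost the call in 11 of 17 alternatives.

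The higher genes there were Mreg and Fn1. Mreg, whose protein melanoregulin acts in organelle transport, ranged from 10.96 to 11.24 in knock-out and from 10.13 to 10.94 in wild-type mice (difference 0.51, limma adjusted p = 0.0373), with the call lost in 7 of 18 alternatives. Fn1, which encodes the matrix protein fibronectin, had 10.72, 10.82, 10.31, 10.64 and 10.53 in knock-out mice 1 to 5 and 10.04, 9.93, 9.85, 10.07 and 10.50 in wild-type mice 1 to 5. Wild-type mouse 5 lay within the knock-out range (difference 0.52, SE 0.13, limma adjusted p = 0.0169). The fibroblast markers Col1a1 (difference 0.50) and Lum (0.99) were also higher, while Pdgfra (0.08) and Dcn (0.40) of the same list did not pass. The part of fibroblasts in the level of Fn1 was not tested. Atic, the first member of the stretch and a neighbour of Fn1, showed -0.04.

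At more than 2.5 Mb after Des, 3 of 11 genes passed. Besides Wdfy1 and 2310015K22Rik this was 5730419F03Rik (78595031 to 78609508, reverse strand), a long intergenic non-coding RNA with 6.61 to 7.32 in knock-out and 5.92 to 6.54 in wild-type mice (difference 0.74, SE 0.17, limma adjusted p = 0.0102). Serpine2, a protease inhibitor also known as protease nexin, had no overlap between the genotypes (11.76 to 11.89 against 11.93 to 12.27) but a small difference of -0.25, which did not pass (adjusted p = 0.0655). Acsl3, which activates fatty acids, and Utp14b, which lies within it on the same strand, had -0.40 and -0.32, and both had their lowest value of all mice in wild-type mouse 3. The spans of both genes share 13475 bases, introns included, and how reads of shared exons were counted is not given.

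**Figure D3:**
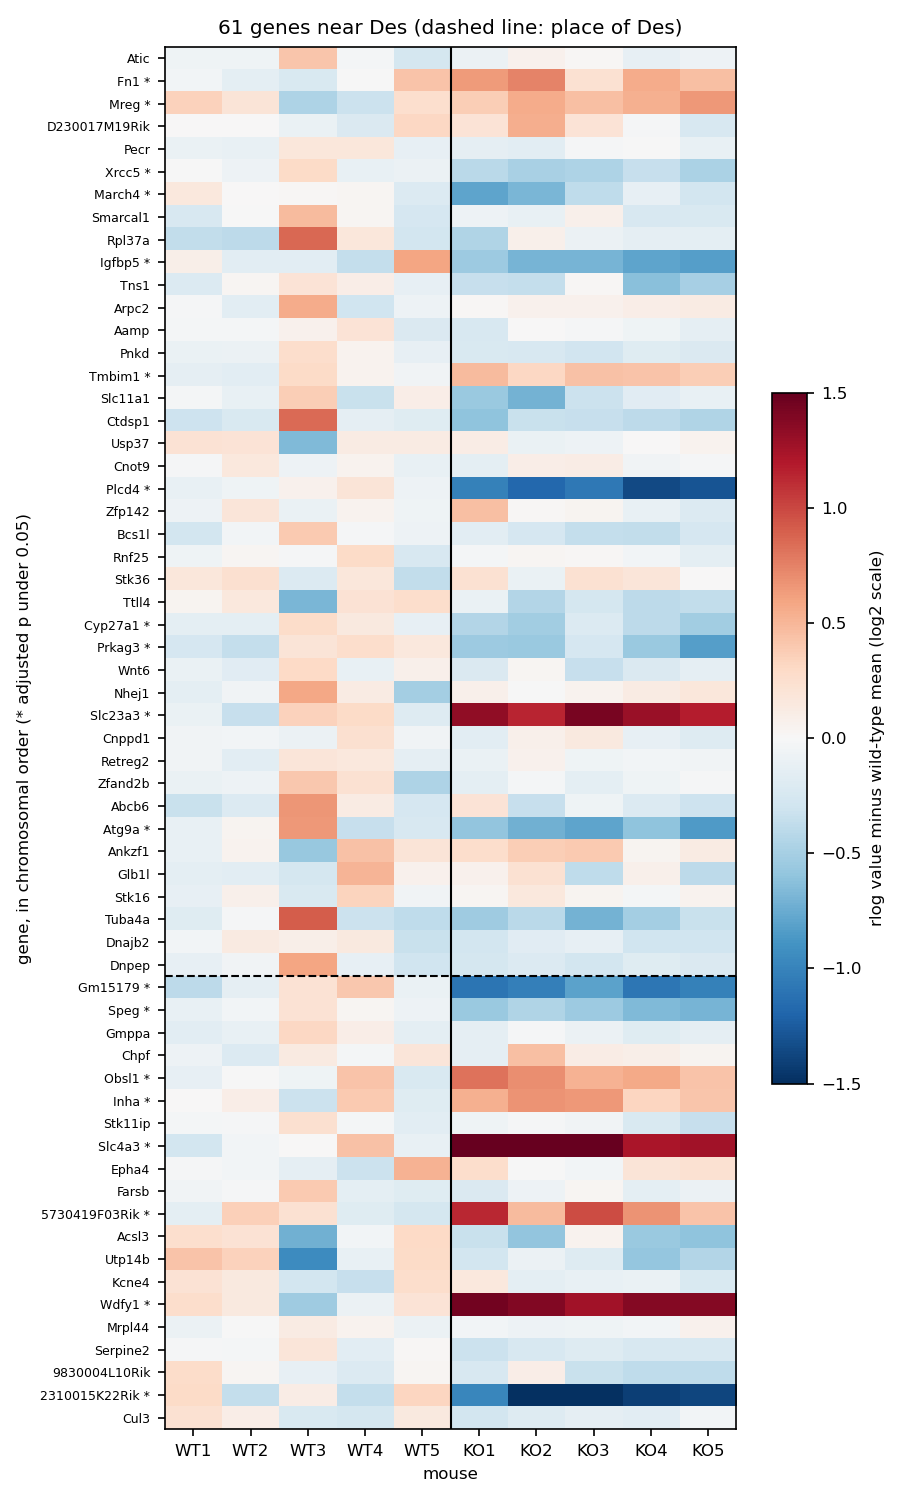
Each row is 1 of the 61 genes in chromosomal order and each column 1 mouse, and the color is the rlog value minus the wild-type mean of that gene on the log2 scale, cut at 1.5 in either direction. Rows with a star are the 19 genes with an adjusted p under 0.05, and wild-type mouse 3 shows strong colors in many rows without a star.

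Grouped by what their proteins do, members of each list with several calls stood beside others that did not pass. Of the 6 members for membrane transport and channels, 3 were higher (Tmbim1, Slc23a3 and Slc4a3) and none lower, and the metal ion transporter gene Slc11a1 (-0.38), Abcb6 and Kcne4 did not pass. Of the 8 members of signalling, 3 were lower (Plcd4, Prkag3 and Speg) and none higher. Of the 11 members for ubiquitin, chaperones, autophagy and trafficking, 1 was higher (Wdfy1) and 2 lower (March4 and Atg9a). The 12 members of metabolism, mitochondria and translation held 1 lower gene, Cyp27a1, and the 7 of DNA repair and transcription also 1, Xrcc5. Obsl1 and Mreg were the 2 higher genes among 6 of the cytoskeleton, and Fn1 and Inha were higher and Igfbp5 lower among 5 secreted proteins. Of 6 members in no list, 5730419F03Rik was higher, and Gm15179 and 2310015K22Rik were lower. The median difference of the lists lay between -0.28 and 0.16. For comparison, 14.8% of all members were higher and 16.4% lower, and 7.7% and 5.99% of all tested genes. The lists are small, and none was tested as a set.

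The 42 members past no threshold had differences from -0.498 to 0.239, with a median size of 0.123 regardless of sign. The half-width of their unadjusted 95% intervals was between 0.173 and 0.487. A difference that did not pass is not shown to be absent, since some of these intervals leave out 0. An example is Dnajb2 (-0.45 to -0.01, limma adjusted p = 0.162). Among all 61 genes, 51 varied more between wild-type than between knock-out mice. The median SD was 0.254 in wild-type and 0.129 in knock-out mice, close to 0.246 and 0.127 over all tested genes.

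Several members share a start region with a neighbour on the opposite strand. In 9 such head-to-head pairs the annotated 5′ ends lie within 1000 bases of each other. For each pair the value of the reverse-strand gene minus that of the forward-strand gene was taken within each mouse and compared between the genotypes with an exact two-sided permutation test, with Benjamini-Hochberg adjustment over the 9 pairs. This test was added after the values of the genes had been seen. Wdfy1 and Mrpl44, a mitochondrial ribosomal protein gene, have 5′ ends 125 bases apart and overlap by 126 bases. While Wdfy1 rose by 1.37, Mrpl44 ranged from 10.19 to 10.34 in knock-out mice and from 10.18 to 10.40 in the others, with a difference of -0.03 (95% interval -0.20 to 0.14). The within-mouse difference of this pair shifted by 1.40 without overlap between the genotypes (exact permutation p = 0.00794, adjusted p = 0.0476). This shift stayed between 1.24 and 1.49 with each mouse left out (exact permutation p = 0.0159 each time, not adjusted over the pairs).

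Atg9a and Ankzf1 have 5′ ends 45 bases apart, and both lie within the Atg9a window printed above. Their within-mouse difference was 2.0 ± 0.20 (SD, n = 5) without desmin and 2.95 ± 0.76 (SD, n = 5) with it, a shift of -0.95 (exact permutation p = 0.0159, adjusted p = 0.0476). Without wild-type mouse 3 the shift was -0.64 (exact permutation p = 0.0317, not adjusted over the pairs). Gm15179 and Speg, 285 bases apart, were both lower, and Gm15179 by 0.43 more than Speg within mice (exact permutation p = 0.0159, adjusted p = 0.0476). With each mouse left out, the exact permutation p of this pair lay between 0.0159 and 0.0317, not adjusted over the pairs. Gm15179 overlaps Des, and the part of reads of Des in its fall was not tested. Adjusted p was not computed anew with mice left out, so whether the calls of these pairs hold then is not shown. Obsl1 and Inha, 625 bases apart, were both higher, and the within-mouse difference between them shifted by 0.09 (exact permutation p = 0.413). For the remaining pairs, Aamp and Pnkd, Zfp142 and Bcs1l, Rnf25 and Stk36, Cnppd1 and Retreg2, and Glb1l and Stk16, neither gene passed in the test over all genes, and the shift within mice lay between -0.15 and 0.32 with adjusted p of at least 0.107 (exact permutation test).

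**Figure D4:**
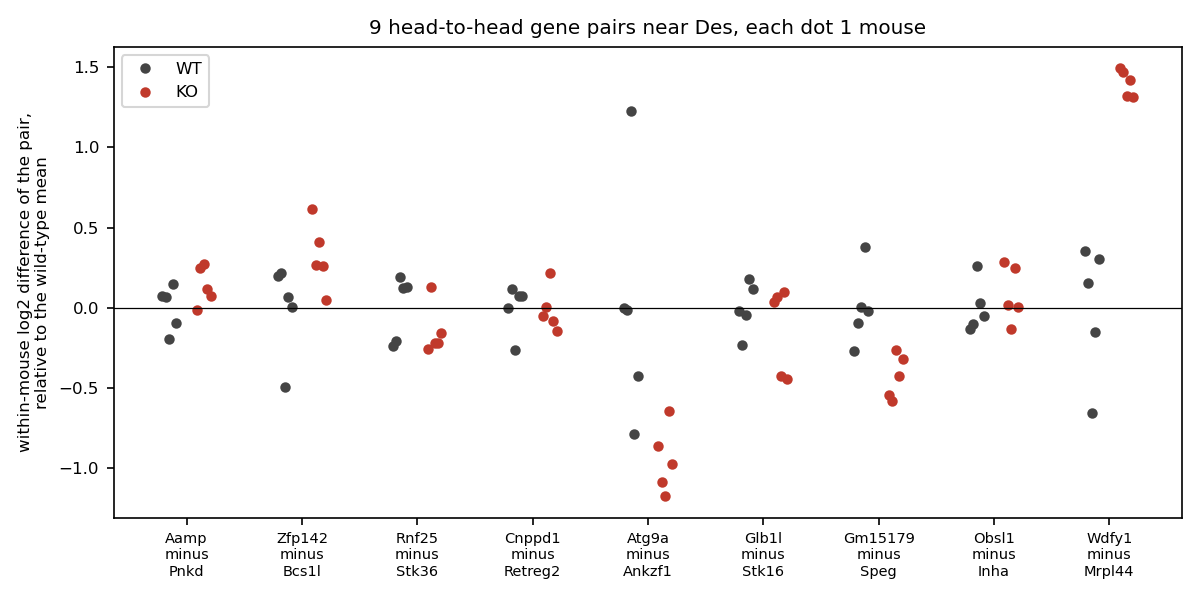
For each of 9 head-to-head gene pairs, dots give the within-mouse log2 difference of the rlog values of both genes in each wild-type (grey) and knock-out (red) mouse, relative to the wild-type mean. Only for Wdfy1 and Mrpl44 do all knock-out mice lie apart from all wild-type mice, and for Atg9a and Ankzf1 the wild-type mice spread most.

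By distance, changed genes were 7 of 21 up to 0.5 Mb from Des, 3 of 13 between 0.5 and 1 Mb, 1 of 6 between 1 and 2.5 Mb and 8 of 21 between 2.5 and 5 Mb. The share was thus no larger next to Des (33.3%) than at the outer part of the stretch (38.1%). Outside the stretch, 1 of 22 genes at 5 to 10 Mb passed (4.55%), and 21 of 136 at 10 to 20 Mb (15.4%), all of them higher. The share was 16.7% on the rest of chromosome 1 and 13.5% on other chromosomes, with both directions present. Differences of at least 1 were found in 6 of 61 genes up to 5 Mb and in none of the 22 at 5 to 10 Mb. Their share was 0.735% at 10 to 20 Mb (1 of 136), 4.5% on the rest of chromosome 1 and 2.18% on other chromosomes. The borders of these distance classes were set after the values had been seen, and the shares were not tested.

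**Figure D5:**
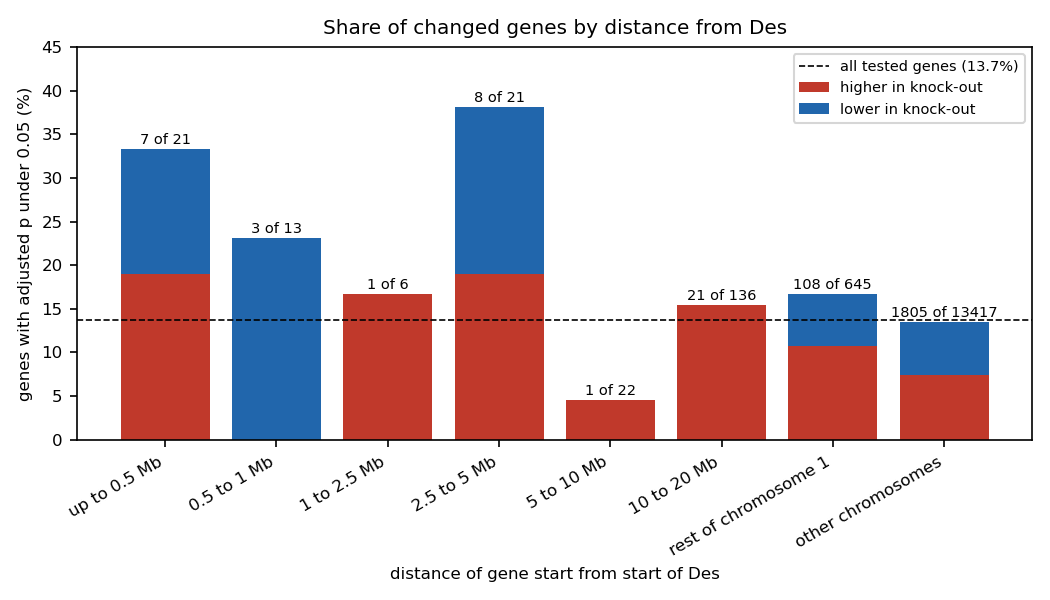
Bars give the percentage of tested genes with an adjusted p under 0.05 by distance of the gene start from the start of Des, red for higher and blue for lower in desmin knock-out muscle, with the number of changed and tested genes above each bar. The dashed line marks 13.7%, the share over all tested genes, and the bar for 5 to 10 Mb, with 1 of 22 genes, lies below it.

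At the borders of the stretch, Atic (3.80 Mb before Des) and Cul3 (4.90 Mb after it) were the outermost members. The nearest tested genes outside, Ikzf2 at 5.83 Mb and Dock10 at 5.14 Mb, had differences of 0.17 and 0.24. By level, Wnt6 was the lowest member with a mean of 3.70, and Gm15181, with 3.26 just below the limit of 3.32, had a difference of 0.90 and was not tested.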

How the data were processed

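Gastrocnemius RNA of 10 mice, 5 without desmin and 5 wild-type, was sequenced. Per the labels, the authors used a stranded mRNA library kit, cutadapt 2.5, STAR 2.5.4a, featureCounts of Subread 1.6.1 and DESeq2 on GRCm38, and the settings are not given in the sources used here. The deposited values are rlog values, on a log2 scale. Depth is unknown, so no counting interval was given.

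Symbols and positions came from GENCODE M21 (GRCm38), with positions for 54165 of 54232 genes. The limit on expression was a mean of log2(10), and limma 3.58.1 (R 4.3.3, lmFit and eBayes with trend, two-sided) compared the genotypes with Benjamini-Hochberg adjustment over the 14289 genes above it, after the script had been tested on simulated data. Exact permutation tests (SciPy 1.17.1) were made only for Plcd4, Slc4a3, Wdfy1 and Slc23a3 and for the within-mouse differences of the gene pairs. Promoters came from RefSeq (GRCm38.p6).

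Members and lists were chosen with earlier results of these data known. Named with values were Plcd4, Slc4a3, Wdfy1, Slc23a3, Gm15179, every changed member, the 5 nearest genes on each side of Des, 10 genes with roles in muscle, its matrix or protein turnover, and the largest difference of each function list. Other members, pairs apart, were named after their values were seen. Alternatives were other limits on expression, scalings, variance models, windows and thresholds, a replicate block, a covariate from 4 Y-linked transcripts and each mouse left out.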

Additional observations from a re-analysis of the deposited data

Results flagged for a closer look

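Each genotype was looked at for Des and 29 members, 60 groups of 5 mice in all. In 6 of them the gap of 1 mouse to its nearest neighbour, divided by the range of the group, was above Dixon's 95% critical value. By chance this happens in about 1 in 20 groups, but these groups are the same 10 mice over many genes and not independent, so the number of groups was not tested. In 5 of them this was wild-type mouse 3, which also stood apart over all genes and had the highest wild-type value for Des (17.74), Xrcc5 (11.31), Ctdsp1 (12.66), Tuba4a (15.99) and Dnpep (11.34). The other was knock-out mouse 3 for Gm15179 (8.81), above the remaining knock-out mice. Without wild-type mouse 3, Xrcc5 had a difference of -0.36 and passed the threshold (limma adjusted p = 0.00123), and Ctdsp1 (0.0611), Tuba4a (0.0764) and Dnpep (0.475) did not pass.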

How the results depend on the processing

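Quantile normalization, median centring, a variance prior without trend and the 5′ end in place of the lower coordinate each gave 9 higher and 10 lower members (limma). Over all genes, 56.2% of calls were higher, and 49% with median centring, 51% with quantile normalization and 49.6% with sample weights. Sample weights gave 18 lower members beside 11 higher ones, while 29.5% of all genes passed. An adjusted p under 0.01 left 4 higher members and 7 lower ones, 18% of the members against 6.96% of all tested genes. A window of 2.5 Mb held 5 higher and 6 lower of 40 members, with 10 free of overlap between the genotypes. The median difference moved to -0.010 with no limit on expression and to -0.020 with the Y-linked covariate. The Y-linked transcripts were expressed in every mouse, with the lowest mean in wild-type mouse 3 (9.52), so this covariate does not stand for sex. With each mouse left out in turn, between 6 and 9 members were higher and between 7 and 13 lower, 17 to 22 had no overlap, and the median difference lay between -0.149 and -0.066. In these refits 21.3% to 36.1% of the members and 9.8% to 17.5% of all genes passed, and 27.9% to 36.1% of the members and 15.4% to 18.5% of all genes had no overlap. The causes of these shifts were not tested.

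Of the 29 members followed, 3 small differences that never passed changed sign, namely Gmppa with the Y-linked covariate (0.000), Stk16 without wild-type mouse 3 (-0.007, range over mice left out up to 0.132) and Glb1l without wild-type mouse 4 (0.051, range from -0.155). At an adjusted p under 0.05, 13 of the 19 changed members passed in the same direction in each refit of single genes that held them. Slc23a3 lay below the stricter expression limit of log2(50) and so had 17 refits instead of 18. March4, Mreg, Inha, Prkag3, Cyp27a1 and Fn1 lost the call in 11, 7, 6, 3, 2 and 1 of their refits. Conversely, 4 of the 29 members followed gained a call, all lower (limma). With sample weights these were Tns1 (adjusted p = 0.00634), Tuba4a (0.0153), Dnajb2 (0.0124) and Cul3 (0.00937), and Cul3 also passed with the Y-linked covariate (0.0238), Tns1 without knock-out mouse 3 (0.0246) and Dnajb2 without wild-type mouse 5 (0.0354). The deviations of same-numbered mice from their group means had correlations from -0.22 to 0.07. A small effect shared by a pair could be hidden by the spread between mice, so whether the numbers mark pairs is not known. With the replicate block, 8 members were higher and 9 lower, March4 and Inha losing the call (limma, adjusted p = 0.0925 and 0.0576), while 1579 instead of 1956 genes passed over the whole table.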
